A study of Mus musculus with 12 samples.

Results

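The control line of this series was examined on its own: 4 of the 12 arrays, all from control MC38 cells. MC38 is a metastatic mouse colon cancer line that can be grafted into C57BL/6 mice, and its labels describe it as lacking CEACAM1, an adhesion molecule on the surface of many epithelia. The 4 samples were chosen by their titles, replicates 1 to 4, and had all grown for 72 h in medium with 10% serum and selection antibiotics. The remaining arrays hold the same line given either splice isoform of CEACAM1 and are not compared here. The labels do not say whether the 4 samples were separate cultures, clones or extractions, so the spread between them may be technical.

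Each sample was hybridised to 1 Illumina bead array, which reads biotin-labelled cRNA with short probes. The deposited detection p-value says how often a negative control bead of that array was as bright as the probe. A gene was called detected where at least 1 of its probes had a detection p under 0.05 on all 4 arrays, and absent where every probe had a p of 0.05 or more on all 4. Absent therefore means not above the negative beads, which is not the same as no transcript. Levels are background-corrected, quantile-normalized log2 signals, given for control arrays 1, 2, 3 and 4 in that order or as the mean ± SD over the 4 arrays. Brightness is also a property of the probe, so an order by level describes signal and not amounts of RNA.

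The colon is lined by a simple epithelium whose cells are held together by E-cadherin, claudins and keratin filaments, renewed from crypt stem cells under Wnt signalling and patterned by homeodomain factors such as CDX2. Mesenchymal cells build vimentin filaments and secrete matrix, and zinc finger and helix-loop-helix factors of the Zeb, Snail and Twist families repress epithelial genes. Carcinoma cells in culture can show either programme.

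Between 14717 and 15929 of 45281 probes were detected per array, which is 32.5 to 35.2%. Median raw signals lay between 86.6 and 103 units, and the lowest signal called detected between 92.9 and 112 units. The brightest probe read 17443 units on array 4 and 27138 to 38982 units on the other arrays. Levels of detected genes correlated across genes at r between 0.9847 and 0.9928, and arrays 2 and 3 were the closest pair. The median SD of a detected gene over the 4 arrays was 0.18, and 91 genes had an SD over 0.5. Genes are not independent replicates, so these correlations only describe the arrays.

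Of 19057 genes with a named probe, 7653 were detected on all 4 arrays (40.2%), 8831 were absent (46.3%) and 2573 fell between (13.5%). Leaving out any 1 array gave between 7725 and 8010 detected genes. Detected genes had a median level of 8, and absent genes a median of 4.38 with no mean above 4.71. Levels exceeded 10 for 1406 detected genes and 12 for 271. The 100 brightest genes carried 22.3% of the summed signal of detected genes, and the 500 brightest 49.8%.

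Both calls have measured limits. Among 278 genes of machines that dividing cells use (ribosomes of cytosol and mitochondria, proteasome, complex I, ATP synthase, chaperonin, tRNA synthetases and DNA replication), 242 were detected (87.1%) and 20 were called absent (7.19%). Those absent calls include the proteasome subunits Psma1, Psma3, Psma6 and Psmc6, so an absent call does not show that a transcript is missing. They also include Rpl3l, Rpl39l and Rps4l, paralogues with tissue-restricted expression, so the share is not an error rate. Absent calls were more frequent for genes of these machines with 1 probe (17 of 152, 11.2%) than for those with several (3 of 126, 2.38%). On the other side, 9 of 1276 olfactory, vomeronasal and taste receptor genes were detected (0.705%), and the brightest of them, Olfr724, averaged 5.80 ± 0.17. The share detected was also higher for genes with more probes, at 29% of genes with 1 probe, 45% with 2 and 60.9% with 3 or more.

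**Figure D1:**
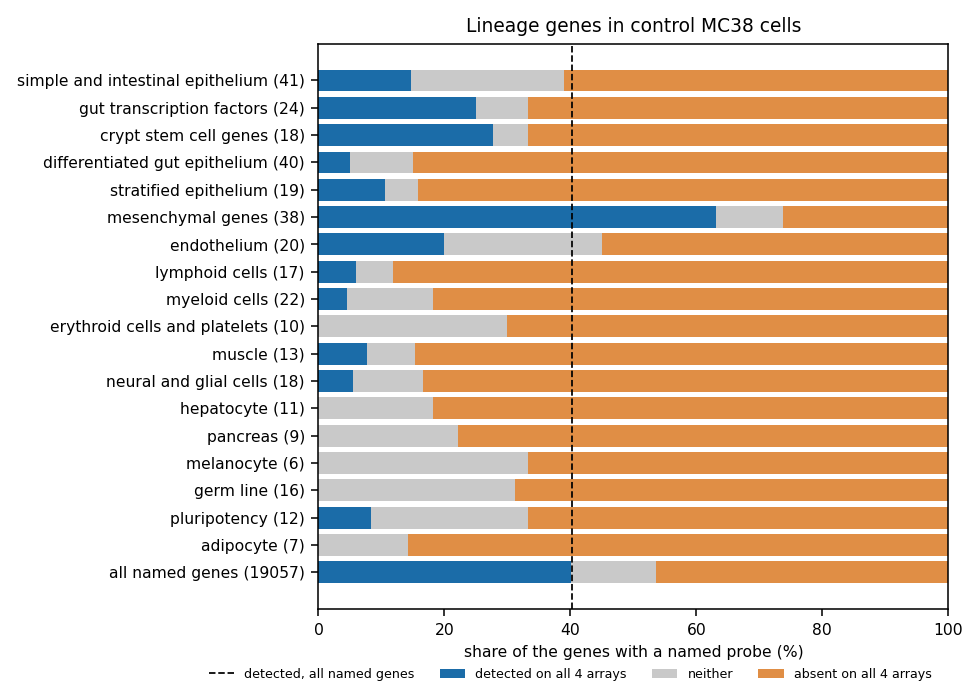
Share of the members of each lineage list that were detected on all 4 control arrays, absent on all 4, or neither, with the number of genes that have a named probe in brackets. The dashed line marks the 40.2% of all named genes that were detected. The bar of mesenchymal genes reaches 63.2%, that of simple and intestinal epithelium 14.6%. The lists are not matched for the number of probes per gene.

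Genes that define simple and intestinal epithelium were mostly not detected. Of 41 such genes with a named probe, 6 were detected (14.6%, beside 40.2% of all genes), 25 were absent and 10 fell between. The 6 detected genes had a median level of 5.7, beside 8 for all detected genes. Epcam, the epithelial cell adhesion molecule, read 4.28, 4.42, 4.32 and 4.35. All 4 values lay below the highest mean of an absent gene, which its absent call largely fixes. Krt20 and Krt19, keratins of the intestinal lining, averaged 4.37 ± 0.03 and 4.38 ± 0.23 and were absent. So were Krt18, the partner keratin of Krt8, and Vil1, the actin bundler of the microvillus. Each of these 5 genes has 1 probe on the array. Cdh1, which encodes E-cadherin, read 4.60, 5.30, 4.73 and 4.64, and 1 of its 2 probes passed the detection threshold on array 2 alone. Of the 9 genes taken as defining an epithelium, 2 were detected, 5 were absent and 2 fell between.

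Most other genes of the epithelial programme were below detection too. The tight junction genes Cldn3, Cldn4, Ocln, Tjp3, Cgn, Marveld2 and F11r were absent, and Cldn7 was detected on 3 arrays. The splicing factors Esrp1 and Esrp2, which set epithelial isoforms, were absent, as was Grhl2, a transcription factor that maintains epithelial junction genes. The epithelial serine protease St14 and its inhibitors Spint1 and Spint2 were absent too. Among the detected members, Krt8 was at 6.34, 6.27, 6.06 and 6.55 by 1 of its 2 probes, a narrow range. Pkp3, a plakophilin of desmosomes, averaged 6.74 ± 0.11, and Pkp2 averaged 5.72 ± 0.33. Elf3, an epithelial ETS factor, read 4.80, 4.96, 5.04 and 6.10. Array 4 was high and the other arrays lay near the detection limit. Lgals4, a gut galectin, averaged 4.96 ± 0.16, and none of Pkp2, Elf3 and Lgals4 kept its call at a detection p under 0.01.

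Of 24 transcription factors of the gut, 6 were detected (25%, beside 40.2% of all genes) and 16 were absent. Sox9, which marks crypt progenitors, was bright at 11.76, 11.71, 11.85 and 11.70. Klf5, a factor of proliferating crypt cells, read 10.76, 11.06, 11.14 and 11.11, and Klf4 averaged 8.87 ± 0.07. The arrays lay close together for Sox9, and array 1 was lowest for Klf5. Hnf4a, which directs enterocyte genes, was just above the limit at 4.77, 5.12, 5.20 and 4.99, Gata6 averaged 5.31 ± 0.24, and Tcf7l2, the main partner of beta-catenin in the gut, averaged 5.78 ± 0.44. These 3 lost their calls at a detection p under 0.01, which left 3 of the 24. Cdx2 was detected on array 4 alone, with 4.42, 4.39, 4.71 and 4.92. Cdx1, Foxa1, Foxa2, Atoh1, Gata4 and Spdef were absent.

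Markers of crypt stem cells and of differentiated cells were both detected at lower shares than all genes. Of 18 crypt genes, Cd44, Cdca7, Lrig1, Bmi1 and Mex3a were detected (27.8%, beside 40.2% of all genes). Lgr5, Ascl2, Olfm4, Smoc2, Rnf43 and Axin2 were absent along with 6 others. Cdca7, which encodes a chromatin factor, averaged 11.10 ± 0.17, and Lrig1, a brake on growth factor receptors, averaged 10.29 ± 0.18. Cd44, a hyaluronan receptor, read 11.68, 11.82, 11.86 and 11.92 by its brightest probe, and 2 of its 9 probes were detected. Of 40 genes of absorptive, goblet, Paneth, endocrine and tuft cells, 2 were detected (5%) and 34 were absent (85%, beside 46.3% of all genes). The absent genes include Alpi and Fabp1 of enterocytes, Muc2 and Tff3 of goblet cells, Lyz1 of Paneth cells and Chga of endocrine cells. Aqp8, a water channel of colonocytes, was detected at 5.95, 6.53, 6.55 and 6.02, with arrays 2 and 3 above arrays 1 and 4. Clca1, a goblet cell secretory protein, averaged 4.96 ± 0.16.

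A set of genes linked with fetal and regenerating gut epithelium gave 5 of 8 detected (62.5%, beside 40.2% of all genes), with Il1rn in between and Anxa8 and Ereg absent. Anxa3, a calcium-dependent membrane binder, averaged 13.54 ± 0.11, and Ly6c1 averaged 9.99 ± 0.08. Msln, the surface glycoprotein mesothelin, averaged 9.48 ± 0.14. Anxa1 and Il33 were detected near the limit, at 5.84 ± 0.32 and 5.43 ± 0.42, and Il33 lost its call at a detection p under 0.01.

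**Figure D2:**
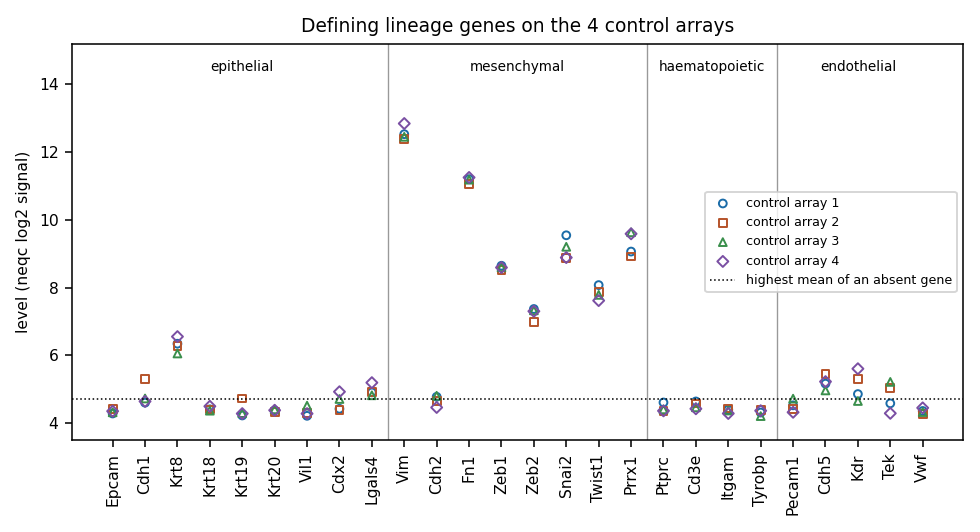
Level of each defining lineage gene on the 4 control arrays (vertical axis, neqc log2 signal), 1 symbol per array. The dotted line is the highest mean of an absent gene, 4.71. Of the 8 mesenchymal genes, 7 lie between 6.98 and 12.85 on every array, while Epcam, Krt18, Krt20 and Vil1 lie below the line.

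Mesenchymal genes were mostly detected, with 24 of 38 (63.2%, beside 40.2% of all genes) and 10 absent. Over all genes the share was 29% with 1 probe and 60.9% with 3 or more. The mesenchymal and epithelial lists were not matched for probe number, and its part in their shares was not tested. The median level of those detected was 9.15, beside 8 for all detected genes. Vim, the intermediate filament of mesenchymal cells, read 12.53, 12.39, 12.45 and 12.85 by 1 of its 2 probes, highest on array 4. Lgals1, a secreted galectin, was among the 20 brightest genes at 13.91, 14.17, 14.16 and 14.27. Axl, a receptor kinase for the GAS6 protein, averaged 13.08 ± 0.08. Fn1, which encodes fibronectin, averaged 11.18 ± 0.09, and Sparc, a matrix glycoprotein, averaged 11.76 ± 0.24. All of these stood far above the highest absent level, although level and call come from the same signals.

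Zeb1, Zeb2, Snai1, Snai2, Twist1, Twist2, Prrx1 and Foxc2, the transcription factors of the list, were all detected. Twist2 averaged 11.53 ± 0.05 and Prrx1, a homeodomain factor of limb and connective tissue mesenchyme, read 9.07, 8.92, 9.64 and 9.59. Prrx1 was higher on arrays 3 and 4, and 5 of its 6 probes were detected. Snai2 read 9.55, 8.88, 9.21 and 8.89, Zeb1 8.65, 8.51, 8.60 and 8.59, Zeb2 7.37, 6.98, 7.33 and 7.30 and Twist1 8.08, 7.87, 7.79 and 7.62. No value of these 4 genes, read by the brightest detected probe, came near the range of absent genes. Level and call come from the same signals, so this distance is not separate support for the calls. Zeb2 was detected by 1 of its 5 probes and Zeb1 by 1 of 2, and Snai2 and Twist1 have 1 probe each.

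Of the 8 genes taken as defining mesenchyme, 7 were detected, and Cdh2 was the exception. Cdh2, which encodes N-cadherin, read 4.78, 4.65, 4.81 and 4.46 and was detected on arrays 1 and 3 only. The fibroblast genes Col3a1, Thy1, Fap, Postn, Pdgfrb and Lum were absent, as were the contractile genes Tagln and Cnn1 and the matrix cross-linker Lox. Col1a1 and Col1a2, the chains of type I collagen, were detected on 2 arrays each. Pdgfra averaged 7.96 ± 0.16 and Tpm1, a tropomyosin, averaged 12.21 ± 0.09.

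Keratins and junction proteins were detected at lower shares than the 40.2% of all named genes. Of 45 keratins, 4 were detected (8.89%), namely Krt10 at 8.60 ± 0.21, Krt86 at 6.42 ± 0.43, Krt8 at 6.31 ± 0.21 and Krt14 at 5.64 ± 0.09. Of 19 genes of stratified epithelium, 16 were absent, including Krt5, Trp63, Dsg3 and Ivl. Of 20 claudins, 5 were detected (25%), and the brightest was Cldn6, an embryonic claudin, at 9.77, 10.11, 10.22 and 9.91. Cldn12 averaged 8.96 ± 0.12 and Cldn9 averaged 6.89 ± 0.37. Of 23 cadherins, Cdh13, Cdh26 and Cdh5 were detected, and of 16 connexins Gja1 and Gjc1. Gja1, a gap junction protein, averaged 11.56 ± 0.12. No mucin of 8 was detected.

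Matrix genes were detected in part. Of 41 collagens, 11 were detected (26.8%, beside 40.2% of all genes). Col4a1 and Col4a2, the basement membrane chains, averaged 10.18 ± 0.09 and 9.78 ± 0.13. Col5a1 averaged 10.33 ± 0.13, Col18a1 10.17 ± 0.10, Col6a1 9.90 ± 0.17 and Col8a1 9.30 ± 0.31. The small leucine-rich proteoglycans, which bind collagen and growth factors, gave 3 of 16 detected. Bgn, biglycan, read 13.40, 13.40, 13.37 and 13.36, with almost no spread. Podnl1 averaged 6.17 ± 0.31. Dcn, decorin, which the study names, read 7.05, 6.87, 6.75 and 7.42, highest on array 4 and lowest on array 3. Its call rests on 1 of 4 probes, since 1 other probe was detected on 3 arrays and the remaining 2 on none.

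Integrins and matrix metalloproteinases were detected near the share of all genes, and serpins far below it. Of 26 integrins, 10 were detected (38.5%, beside 40.2% of all genes). Itga3 averaged 9.73 ± 0.25, Itga5 8.46 ± 0.15 and Itgb1, the common beta chain, 7.99 ± 0.50. The brightest integrin probe was that of Itgb7, a chain known from gut-homing lymphocytes, at 10.52, 10.40, 10.65 and 10.47. Of 21 matrix metalloproteinases, 8 were detected (38.1%), led by the membrane-bound Mmp14 at 11.10 ± 0.13 and the gelatinase Mmp2 at 10.51 ± 0.10. Mmp9 averaged 6.17 ± 0.24, and Mmp7, a metalloproteinase of gut epithelium, was absent. Timp1, an inhibitor of these proteases, averaged 11.70 ± 0.16. Of 56 serpins, Serpinb6a, Serpinh1 and Serpinf1 were detected (5.36%), at 13.51 ± 0.14, 13.43 ± 0.07 and 10.27 ± 0.18. Serpinh1 is a collagen chaperone. For Serpinb6a, 1 of 4 probes was detected.

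The CEACAM family, immunoglobulin-type adhesion proteins, was mostly absent. Of 13 members with a named probe, 10 were absent (76.9%, beside 46.3% of all genes). Ceacam13 and Ceacam20 were detected on 1 array each. Ceacam1 met the rule through 1 of its 4 probes, with 4.87, 4.99, 4.88 and 4.96 and detection p-values of 0.031, 0.016, 0.0363 and 0.0395. The other 3 probes were detected on no array. At a detection p under 0.01 Ceacam1 was absent by every probe. The labels call the line devoid of CEACAM1, and the files do not say which isoform its probes read.

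Epha2, which the study names and which encodes a kinase that binds ephrin-A ligands, read 9.28, 9.34, 9.30 and 9.37. The arrays were nearly equal for it. Of 13 Eph receptors (15.4% detected, beside 40.2% of all genes), Ephb4 was the other one detected, at 9.29 ± 0.15 with 3 of 3 probes. The ephrins, their membrane-bound ligands, gave 4 of 8 (50%). Efna5 averaged 9.07 ± 0.18, Efna4 6.74 ± 0.08, Efna1 5.97 ± 0.30 and Efnb1 5.66 ± 0.21.

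Few genes of other cell types were detected on all 4 arrays. Over the lists of lymphoid, myeloid, erythroid, muscle, neural, hepatocyte, pancreas, melanocyte, germ line and adipocyte genes together, 4 of 129 were detected (3.1%), 103 were absent (79.8%) and 22 fell between (17.1%). The shares over all named genes were 40.2%, 46.3% and 13.5%. Without array 4, 9 of the 129 were detected. The haematopoietic genes Ptprc, Cd3e, Itgam and Tyrobp were absent. The members detected were Prf1, Cd14, Des and Nes. Prf1, the pore protein of cytotoxic lymphocytes, read 6.19, 6.70, 7.41 and 7.06 by 1 of 2 probes, lowest on array 1. Cd14, a lipopolysaccharide co-receptor, averaged 7.72 ± 0.23, Nes, an intermediate filament of progenitor cells, 7.33 ± 0.12 and Des, desmin, 4.99 ± 0.05. The endothelial list, not in that total, gave 4 of 20 detected and 5 in between, with Egfl7 at 9.40 ± 0.08, Cd34 at 9.08 ± 0.43, Flt1 at 5.96 ± 0.44 and Cdh5 at 5.20 ± 0.20, while Pecam1 and Vwf were absent. Their part in the levels of other genes was not tested.

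Some detected probes belong to genes known chiefly from lymphocytes, although 15 of 17 genes of the lymphoid list were absent. Foxp3, the master factor of regulatory T cells, read 8.62, 8.73, 8.36 and 8.93 by 1 of its 4 probes, and another was detected on 3 arrays. Tigit, an inhibitory receptor of T and NK cells, read 9.23, 8.27, 9.32 and 9.35 by its only probe, low on array 2 and close together on the other arrays. Its list of checkpoint ligands and receptors gave 9 of 25 detected (36%, beside 40.2% of all genes). In that list the T cell receptors Pdcd1, Ctla4, Lag3, Icos and Cd28 were absent, and Havcr2 and Btla fell between. Tnfrsf4, a co-stimulatory receptor of T cells, averaged 10.21 ± 0.14. Cd3e and Ptprc, which T cells also express, read 4.64, 4.58, 4.46 and 4.42 and 4.61, 4.35, 4.40 and 4.36, and neither was detected on any array.

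The brightest genes were those of protein synthesis. Of the 40 brightest, 17 encode cytosolic ribosomal proteins, and of the 100 brightest 32. Eef1a1, which brings aminoacyl-tRNA to the ribosome, had the highest mean, 14.68 ± 0.11. Rplp1, Rps29, Mif, Rpl9 and Rpl41 followed with means between 14.50 and 14.67. Outside the ribosome, the list held the cytokine Mif at 14.65, 14.62, 14.42 and 14.46, the RNA-binding protein Ybx1, tubulins Tuba1b and Tubb5, the iron store Fth1 and the ATP synthase subunit Atp5b. Gars, glycyl-tRNA synthetase, averaged 14.02 ± 0.18, and Ifitm1, an interferon-inducible membrane protein, averaged 14.01 ± 0.14. Mt1, a metallothionein that binds zinc and copper, averaged 13.71 ± 0.13, and Hdgf, a growth factor of the nucleus, 13.88 ± 0.15.

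Housekeeping machines were detected at shares above that of all genes. Of 76 mitochondrial ribosomal proteins, 69 were detected (90.8%). Of 34 subunits of respiratory complex I, 31 were detected, of 16 of ATP synthase 14, and of 18 tRNA synthetases 17. Lower shares came from respiratory complex IV, with 9 of 14 (64.3%), and the cytosolic chaperonin, with 5 of 8 (62.5%). Cytosolic ribosomal proteins gave 50 of 59 (84.7%) and proteasome subunits 27 of 34 (79.4%). Histone genes gave 51 of 66, with H2ac24 at 13.41 ± 0.44. Many histone genes are near-identical copies, so their probes may read each other's transcripts.

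Among the metabolic lists, the amino acid supply genes had the highest share detected. Of 20 genes of serine synthesis, one-carbon metabolism and the amino acid response, 19 were detected (95%, beside 40.2% of all genes). Psph was absent. The transcription factor Atf4 averaged 11.45 ± 0.30. Among its known targets, Asns, asparagine synthetase, was bright at 12.76, 12.46, 12.35 and 12.88. So were the pseudokinase Trib3 at 12.49, 12.54, 12.44 and 12.69 and Chac1, which degrades glutathione, at 12.72, 12.55, 12.56 and 12.61. The arrays lay close together for Trib3 and Chac1, and arrays 1 and 4 were higher for Asns. Mthfd2, a mitochondrial folate enzyme, averaged 12.91 ± 0.17, Psat1 of the serine pathway 12.29 ± 0.10 and Phgdh, its first enzyme, 10.91 ± 0.12. The detected members of the list had a median level of 9.95. The dimmest of them were Sesn2, Slc7a11, Slc1a5 and Slc3a2, and the lowest level was 5.49. Fgf21, a hormone gene that ATF4 can induce, averaged 10.15 ± 0.14.

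Of 26 genes of glucose uptake and glycolysis 15 were detected (57.7%, beside 40.2% of all genes), Slc2a4 and Ldhb fell between and 9 were absent, including Hk3, Aldoc, Pgam2 and Slc16a1. Gapdh, Tpi1, Ldha, Pkm and Aldoa averaged 13.80 ± 0.05, 13.66 ± 0.17, 13.34 ± 0.07, 13.19 ± 0.14 and 12.10 ± 0.38. The glucose transporter Slc2a1 averaged 10.76 ± 0.14, and the other uptake carriers Slc2a2, Slc2a3 and Slc2a5 were absent. Fatty acid synthesis gave 11 of 15, with Acaca and Dgat2 absent. Of 16 sterol genes 14 were detected, with Fdps, farnesyl diphosphate synthase, at 11.97 ± 0.13 and the regulator Srebf2 at 9.52 ± 0.31. Of 25 genes of the tricarboxylic acid cycle, 19 were detected. Of 7 gluconeogenic genes, G6pc3 was detected, and Pck1, Pck2, Fbp1, Fbp2 and Pcx were absent. Oxidant defence gave 21 of 28, with Gpx1, a glutathione peroxidase, at 12.70 ± 0.23 and Prdx1, a peroxiredoxin, at 12.77 ± 0.22.

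Cell cycle genes were detected at high shares beside the 40.2% of all genes. DNA replication gave 29 of 33 (87.9%), led by Rpa1 at 11.94 ± 0.12 and the helicase subunits Mcm5 at 11.64 ± 0.18 and Mcm4 at 11.50 ± 0.08. Mitosis gave 19 of 28, with the centromere histone Cenpa at 12.68 ± 0.15 and survivin, Birc5, at 11.72 ± 0.22. Ccna2 and Ccnb2, cyclins that dividing cells use, were called absent. Ccnd1, cyclin D1, read 12.89, 13.13, 12.98 and 13.24 with 3 of 3 probes detected. The inhibitors Cdkn2a and Cdkn2b were absent, and Cdkn1a averaged 9.99 ± 0.16. Of 24 genes of the p53 pathway, 15 were detected (62.5%), among them Gadd45a at 11.93 ± 0.11, Plk2 at 9.89 ± 0.21 and Mdm2 at 9.56 ± 0.14.

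Genes of damage repair were detected at mixed shares. Of 23 genes of double-strand break repair and checkpoints, 15 were detected (65.2%), led by Xrcc6, the smaller Ku subunit, at 11.25 ± 0.07 and Rad50 at 9.21 ± 0.16. Xrcc5, the partner of Xrcc6 in Ku, was called absent. Of 8 mismatch repair genes with a named probe, Msh6, Lig1 and Pms2 were detected (37.5%, beside 40.2% of all genes), Pms1 and Exo1 were absent and Mlh3, Msh3 and Pcna fell between. Without array 4 the detected count was 6. Msh6, which recognises single mismatches, read 10.35, 10.01, 10.28 and 9.99, and Pms2 averaged 6.16 ± 0.22. Pcna, the sliding clamp that all dividing cells use, read 5.56, 5.14, 5.28 and 4.67 by its only probe, lowest on array 4. Tert, the telomerase catalytic subunit, was absent.

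Cell death genes gave 22 of 31 (71%, beside 40.2% of all genes). Mlkl, the executioner of necroptosis, was the brightest at 10.23, 10.60, 10.49 and 10.22, while Ripk3, the kinase that activates it, fell between. Arrays 2 and 3 were higher for Mlkl. Mcl1, a survival protein, averaged 9.63 ± 0.23, and the initiator Casp8 averaged 9.34 ± 0.20. Gsdmd, a pore former of pyroptosis, read 8.92, 9.22, 9.13 and 9.54 with 3 of 3 probes detected. The BH3-only genes Bik, Bmf, Hrk and Pmaip1 were absent, and Bcl2l11, which encodes BIM, averaged 8.63 ± 0.17 with 4 of 4 probes.

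Stress responses were in part detected. Of 15 hypoxia genes, 10 were detected (66.7%, beside 40.2% of all genes). The brightest was Vegfa, the endothelial growth factor, at 10.70, 10.07, 10.14 and 10.58. Arrays 1 and 4 were higher than arrays 2 and 3 for it. Ndrg1 averaged 9.48 ± 0.23 and Ddit4, an inhibitor of mTOR signalling, 9.21 ± 0.07, while Epas1, Bnip3 and Adm were absent. Endoplasmic reticulum chaperones gave 13 of 19, with the disulphide isomerases P4hb at 13.24 ± 0.15 and Pdia3 at 11.73 ± 0.27. Hspa5, the main chaperone of that compartment, was detected on array 1 alone, with 5.51, 4.47, 4.61 and 4.63. Of 16 cytosolic heat shock genes, 10 were detected, led by Hspa8, the constitutive HSP70, at 13.45, 12.81, 12.73 and 13.13, and the inducible Hspa1a and Hspa1b were absent.

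Chromatin genes gave 20 of 26 (76.9%, beside 40.2% of all genes). Uhrf1, which guides maintenance methylation, averaged 10.35 ± 0.19, and Suz12 of Polycomb complex PRC2 averaged 11.59 ± 0.11. Dnmt1, the maintenance methyltransferase, read 8.61, 8.45, 8.27 and 8.19, Dnmt3b averaged 7.53 ± 0.07, and Dnmt3a, Tet1 and Tet3 were absent. Of 15 circadian genes, 10 were detected, with Clock at 9.12 ± 0.24 and Bhlhe40 at 8.31 ± 0.17. Nuclear receptors gave 9 of 29 (31%), led by Rxrb, a shared partner of many of them, at 10.82 ± 0.21 and Ppard, a fatty acid sensor, at 10.11 ± 0.12. Vdr and Pparg, which differentiated colon epithelium expresses, were absent.

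Calcium-binding, sugar-binding and conjugating families were detected at 52 to 75%, beside 40.2% of all genes and 60.9% of genes with 3 or more probes. Of 12 annexins, 7 were detected, with Anxa2 at 13.76, 13.64, 13.88 and 13.78 and Anxa5 at 12.95 ± 0.05. Of 15 S100 proteins, 9 were detected, with S100a11 at 13.61, 13.63, 13.55 and 13.58 and S100a6 at 11.55 ± 0.21, and the neutrophil members S100a8 and S100a9 were absent. The arrays lay close together for Anxa2 and S100a11. Of 8 galectins, 6 were detected, with Lgals3 at 12.85 ± 0.09 after Lgals1. Of 25 glutathione S-transferases, 13 were detected, and Gstp1, which conjugates electrophiles, read 13.20, 13.26, 13.27 and 13.19 with 2 of 3 probes.

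Growth factor receptor kinases gave 12 of 31 detected, close to the share of all genes. After Axl, Mertk averaged 8.29 ± 0.24, Igf1r 7.85 ± 0.20 and Erbb2 7.43 ± 0.09. Met, the receptor for hepatocyte growth factor, was near the limit at 5.20 ± 0.20. Egfr was detected on 1 array, and Erbb3, Fgfr2, Fgfr3, Kit and Ret were absent. Of the Ras and MAP kinase list, 13 of 21 were detected. Among its negative-feedback genes Dusp4, Dusp5, Dusp6, Spred1 and Spry4 were detected, Spred2 fell between and Spry2 was absent. The phosphatase Dusp6 averaged 10.32 ± 0.19, and the ETS factor Etv4 averaged 9.78 ± 0.14. Of 24 dual-specificity phosphatases, 15 were detected.

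Wnt signalling genes were described in a pair of lists. Of 27 receptors and core components 14 were detected, including Ctnnb1, beta-catenin, at 9.31 ± 0.32, Axin1 at 10.31 ± 0.13 and Apc at 5.70 ± 0.34. Of 20 targets and inhibitors, 5 were detected (25%, beside 40.2% of all genes) and 13 were absent. The feedback genes Axin2, Nkd1, Notum, Lgr5 and Rnf43 were among those absent. Ccnd1, Cd44 and Myc, also targets of other pathways, were among those detected, and Myc averaged 8.37 ± 0.30. Among 19 Wnt ligands, Wnt7b was bright at 11.62, 11.86, 11.91 and 11.90 with 2 of 2 probes, followed by Wnt5a, Wnt10b and Wnt10a at 8.80 ± 0.18, 8.43 ± 0.11 and 7.75 ± 0.14.

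The TGF-beta and BMP list gave 21 of 35 (60%). Its brightest member was Grem1, a secreted BMP antagonist made by gut stroma, at 10.88, 10.82, 11.28 and 11.09. Inhba, the activin A chain, averaged 10.20 ± 0.23, and the receptors Tgfbr1 and Tgfbr2 averaged 9.60 ± 0.10 and 10.80 ± 0.10. Hippo genes gave 12 of 17 (70.6%, beside 40.2% of all genes), with the transcription co-factors Yap1 and Wwtr1 at 8.58 ± 0.20 and 8.56 ± 0.19. Ankrd1 and Ccn1, known targets of these co-factors, averaged 12.20 ± 0.33 and 10.06 ± 0.12, while Ccn2, another known target, was detected on 1 array and Lats1, Lats2 and Nf2 of the core pathway were absent. Of 18 Notch genes 5 were detected, and the receptors Notch1 and Notch3 were absent. Of 10 Hedgehog genes, Gli3, Smo, Ptch1 and Sufu were detected, Shh fell between, and Gli1 was among those absent.

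Genes that present antigen were divided by class. Of 25 class I genes, 19 were detected (76%, beside 40.2% of all genes). B2m, the invariant light chain, read 13.34, 13.08, 13.06 and 13.08, highest on array 1, and H2-D1 read 12.71, 12.78, 12.88 and 12.75. H2-K1 averaged 8.09 ± 0.09, and probes of class I genes may read related members of the family. The immunoproteasome subunits Psmb8 and Psmb10 averaged 10.18 ± 0.02 and 9.36 ± 0.16, and the peptide transporter Tap2 averaged 8.90 ± 0.19. Of 10 class II genes, H2-DMb1 was detected at 8.18 ± 0.19, and Cd74 and Ciita were absent. Canx, a chaperone used by all cells, was also called absent.

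Interferon-stimulated genes gave 23 of 36 (63.9%, beside 40.2% of all genes). Those detected had a median level of 6.88, beside 8 for all detected genes, and 3 of them exceeded 10. Ifitm3 averaged 13.59 ± 0.08 and Irgm1 12.27 ± 0.12. Isg15, a ubiquitin-like modifier, averaged 9.10 ± 0.30, while Mx1, Mx2, Ifit1, Irf7 and Oas1a were absent. Of the interferon genes themselves, Ifnb1, Ifng, Ifna2 and Ifna4 were absent, and Ifna1 was detected near the limit at 4.81, 5.36, 5.52 and 4.94. Interferon alpha genes are close copies, so their probes may read each other's transcripts. The DNA sensor Cgas averaged 9.40 ± 0.11 and its adaptor Sting1 5.89 ± 0.16.

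Innate sensing and NF-kappaB genes gave 19 of 32 (59.4%, beside 40.2% of all genes). Rela, the main activating subunit, averaged 10.77 ± 0.19, its inhibitor Nfkbia 10.12 ± 0.24 and the adaptor Myd88 10.18 ± 0.12. Of 12 Toll-like receptors, Tlr4, which reads lipopolysaccharide with CD14, was detected at 6.77, 6.97, 6.95 and 6.31 and Tlr2 near the limit at 5.03 ± 0.27, and 9 were absent. Interferon receptors and signalling gave 8 of 17, with the feedback inhibitor Socs3 at 8.24 ± 0.23 and Ifngr1 at 7.53 ± 0.21, while Ifnar1 was called absent. Of 32 interleukins, 5 were detected and 22 absent, including Il1a, Il1b, Il6 and Il18. Il11, a stromal and wound cytokine, averaged 5.79 ± 0.31 and Il7, which supports lymphocytes, 5.75 ± 0.34. Of 27 interleukin receptors, Il6ra, Il17ra and Il20rb were detected, and without array 3 the count was 6.

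The chemokines gave 12 of 36 (33.3%, beside 40.2% of all genes). They were led by Cxcl1, which draws neutrophils, at 9.43 ± 0.16, and Cxcl10, which draws T cells, at 8.98, 9.47, 9.52 and 9.29. None of 18 chemokine receptors was detected (1 without array 4), and none of 10 ligands of the tumour necrosis factor family. Tnfrsf12a, the receptor for TWEAK, averaged 13.03 ± 0.08. The checkpoint ligand Cd274, PD-L1, read 6.39, 6.36, 6.35 and 6.74, highest on array 4, and Pdcd1lg2 was absent. Cd47, a signal against phagocytosis, averaged 9.26 ± 0.18 and Pvr, the ligand of TIGIT, 8.52 ± 0.18. Csf1, a macrophage growth factor, averaged 8.26 ± 0.39 and Il34, which shares its receptor, 8.37 ± 0.12.

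Among families of developmental factors, Hox genes gave 11 of 38 (28.9%, beside 40.2% of all genes), spread unevenly over the 4 clusters. HoxA had 5 of 10 genes detected, HoxC 3 of 9, HoxD 3 of 9 and HoxB 0 of 10. The brightest were Hoxc6 at 9.91, 9.79, 9.94 and 9.94, Hoxc9 at 9.42, 9.74, 9.60 and 9.45 and Hoxc10 at 8.87, 8.72, 9.03 and 9.03. Their arrays lay close together. Of 43 Fox genes 15 were detected (34.9%), of 17 Klf genes 8 (47.1%) and of 19 Sox genes 3 (15.8%). The Fox and Klf shares lay near that of all genes. No Pax gene of 9 was detected. Of 12 pluripotency genes Klf4 was detected, Pou5f1, Nanog and Lin28a fell between and 8 were absent, including Sox2 and Zfp42. Without array 4 the detected count was 2.

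**Figure D3:**
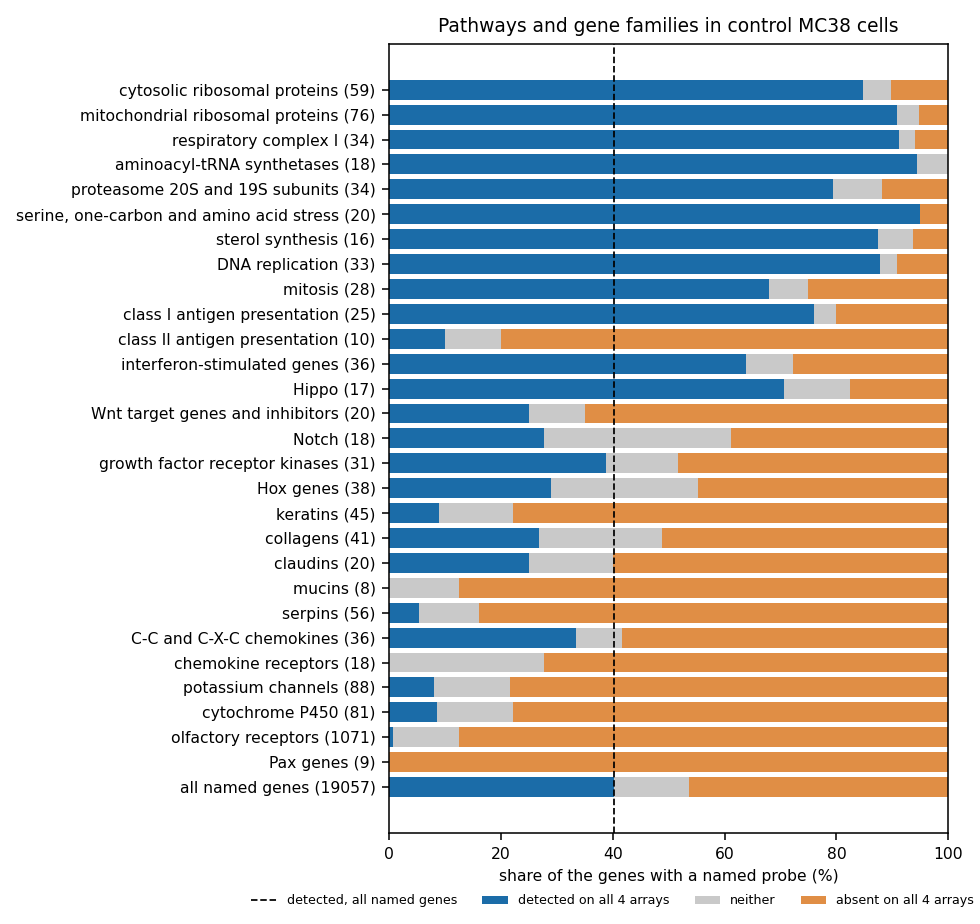
Share of the members of pathway lists and symbol families that were detected on all 4 control arrays, absent on all 4, or neither, with the number of genes that have a named probe in brackets. The dashed line marks 40.2%, the share of all named genes detected. Ribosomal proteins, complex I and amino acid supply genes lie at 84.7% or more, and olfactory receptors at 0.654%.

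Families used by specialised tissues were scarce beside the 40.2% of all genes detected. Of 81 cytochrome P450 genes 7 were detected, of 88 potassium channel genes 7, of 65 protocadherins 5 and of 48 defensins 1. Solute carriers gave 111 of 343 (32.4%), led by the ADP/ATP carrier Slc25a5 at 12.72 ± 0.10. Zinc finger genes named Zfp gave 139 of 328 (42.4%), near the share of all genes. Of 12 pregnancy-specific glycoproteins, relatives of the CEACAM family, Psg23 was detected at 7.40, 7.18, 7.20 and 7.23 by 1 of 2 probes. Its arrays lay close together.

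Genes differed in how well the 4 arrays agreed. Of the 91 detected genes with an SD over 0.5, array 1 was highest for 42 (46.2%) and array 3 lowest for 36 (39.6%). Over all detected genes array 1 was highest for 26.8% and array 3 lowest for 20.5%. ND1, a mitochondrially encoded subunit of complex I, read 11.73, 10.27, 10.13 and 10.68, and COX2, encoded there too, read 9.89, 8.37, 8.54 and 8.73. Both were high on array 1. Ssbp1, a mitochondrial DNA-binding protein, read 9.76, 8.25, 8.30 and 8.84 and Cox6c of complex IV 9.95, 8.66, 8.45 and 9.03, also highest on array 1. ND5 went the other way, with 6.43, 7.70, 7.78 and 8.26, lowest on array 1. Mill2, a class I-like gene, read 5.02, 4.87, 4.97 and 6.35, high on array 4 alone. No source used here gives the chip or scan batch of these arrays.

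Detected genes were unevenly spread over chromosomes. Among autosomes the share detected lay between 33.5% on chromosome 7 and 48.6% on chromosome 8. Without olfactory and vomeronasal receptors chromosome 7 reached 40.4%. Chromosome X gave 198 of 710 (27.9%). Of 19 genes on chromosome Y none was detected on all 4 arrays and 18 were absent. Xist, the RNA that silences an X chromosome, was absent as well.

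Promoters of detected and absent genes were set beside each other for a feature that the calls did not use, with no test. RefSeq promoters (build GRCm38.p6, the 250 bases before the first listed start) were found for 6278 detected, 2026 intermediate and 6903 absent genes. The median number of CG dinucleotides was 17 in promoters of detected genes and 5 in those of absent genes, with 11 in those of all named genes. At least 10 were present in 79.2% of promoters of detected genes, 32.9% of absent and 54.6% of all. Leaving out olfactory and vomeronasal receptors gave a median of 6 and a share of 38% for absent genes. The sequence TATAAA, searched on the gene's strand between 50 and 11 bases before the start, was found in 1.27% of promoters of detected genes, 4.98% of absent and 3.06% of all. It was more frequent in promoters of the detected genes with a level over 12 (4.57%) than in those with a level up to 8 (1.19%). Among the absent genes of differentiated gut epithelium, 9 of 29 promoters held it. A match describes the letters only.

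Lists did not all follow this order. Within simple and intestinal epithelium, the 4 detected genes with a promoter had a median of 5.5 CG, below the 18 absent genes at 9.5. Within the mesenchymal list the order held, with a median of 7 CG for 18 detected genes and 3 for 3 absent genes. Across these lists, the detected mesenchymal genes lay below the absent epithelial genes, also in the share with at least 10 CG (38.9% and 50%).

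Promoters of 2 detected and 2 absent genes are shown with each CG in capitals. These examples do not span the range of CG counts and were not picked as typical of their lists. They are printed 5′ to 3′ on the gene's strand, for Eef1a1 (level 14.68 ± 0.11, chr9:78481725-78481974, minus strand, 18 CG), Twist1 (level 7.84 ± 0.19, chr12:33957421-33957670, plus strand, 18 CG), Fabp1 (absent, chr6:71199629-71199878, plus strand, 2 CG) and Alpi (absent, chr1:87101607-87101856, minus strand, 0 CG).
Eef1a1: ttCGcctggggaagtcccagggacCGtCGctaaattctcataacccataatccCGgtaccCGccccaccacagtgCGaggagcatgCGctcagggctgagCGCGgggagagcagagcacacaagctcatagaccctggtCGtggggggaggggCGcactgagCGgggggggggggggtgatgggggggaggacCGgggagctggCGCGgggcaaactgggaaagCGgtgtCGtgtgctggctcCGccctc
Twist1: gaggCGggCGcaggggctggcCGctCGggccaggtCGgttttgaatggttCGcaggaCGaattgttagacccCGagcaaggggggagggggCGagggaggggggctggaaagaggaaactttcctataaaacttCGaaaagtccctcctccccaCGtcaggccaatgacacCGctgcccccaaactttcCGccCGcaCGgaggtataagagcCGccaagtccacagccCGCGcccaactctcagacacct
Fabp1: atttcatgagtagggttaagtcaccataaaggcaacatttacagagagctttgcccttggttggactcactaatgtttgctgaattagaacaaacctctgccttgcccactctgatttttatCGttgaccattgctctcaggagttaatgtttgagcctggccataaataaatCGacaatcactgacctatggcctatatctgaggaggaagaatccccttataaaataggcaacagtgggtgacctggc
Alpi: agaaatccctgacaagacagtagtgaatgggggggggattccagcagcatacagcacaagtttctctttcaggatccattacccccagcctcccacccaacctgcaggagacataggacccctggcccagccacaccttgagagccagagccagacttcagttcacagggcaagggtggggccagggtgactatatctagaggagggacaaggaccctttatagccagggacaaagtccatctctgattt
The promoters of Eef1a1 and Twist1, with 18 CG each, belong to a gene that all cells use and to a mesenchymal regulator. Twist1 is high for its list, since detected mesenchymal genes had a median of 7 CG and an upper quartile of 17.8. The promoters of the enterocyte genes Fabp1, a fatty acid binding protein, and Alpi, intestinal alkaline phosphatase, carry few CG or none.

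**Figure D4:**
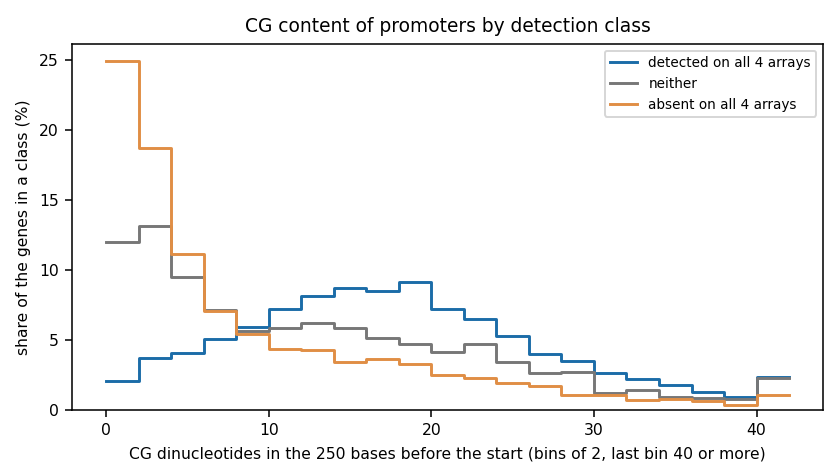
Number of CG dinucleotides in the 250 bases before the start (horizontal axis, bins of 2, last bin 40 or more) against the share of genes in each class (vertical axis, %). The curve of absent genes peaks at the lowest counts, and that of detected genes is broad around its median of 17.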

How the data were processed

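The deposited intensity values, per the file headers 1 signal per probe and array, came with a detection p-value per probe among the deposited columns. The deposited processed table holds log2 values whose array medians lie between 7.06 and 7.08. The tool lumi 2.6.0 is listed in the submitters' processing notes, with no role given, and no source used here states the background step. Every column was mapped to a sample, leaving 0 unmapped.

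Calls use the deposited detection p-values at 0.05. Levels come from limma 3.58.1 (R 4.3.3) neqc, which corrects background from the detection p-values, adds an offset of 16, quantile-normalizes and takes log2, run over the 12 arrays of the series. Where a gene has several probes, the brightest detected probe gives its level, and "1 of 4 probes" and the like count probes detected on all 4 arrays. Of 45281 probes, 34885 have 1 gene symbol in the platform annotation, 18 several and 10378 none, and the probes without a single symbol are unnamed here. For 34807 probes the gene ID matched RefSeq, and 0 symbols changed. Counts and plots used Python 3.11.15 with pandas 2.3.3, numpy 2.4.6 and matplotlib 3.10.9. Levels and calls were tested on simulated data. The number of arrays limits the precision, and no test was run, since the control line is a single group.

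The gene lists, symbol families and members were chosen with earlier results of these data known. Genes named are Ceacam1, Dcn and Epha2, the 40 genes with the highest mean level, members of short lists, for longer lists up to 6 of the brightest detected and up to 6 absent members with those in between, up to 6 detected members of a family, the 10 detected genes with the largest SD, and the defining lineage markers. Predicted genes were left out. Other named genes were chosen after their values were seen, namely Atf4, Phgdh, Yap1, Wwtr1, Apc, Cd274, H2-K1, Tap2, Psmb10, Sting1, Met, Mmp9, Dnmt1, Dnmt3b, Ifna1, Spred1, Spry4, Snai1, Twist2, Foxc2 and the absent members beyond the first 6 of a longer list or of a family. Promoters are RefSeq sequences of build GRCm38.p6. Alternatives for the threshold, the number of arrays, the probe rule and the normalization were run, and each array was left out in turn.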

Additional observations from a re-analysis of the deposited data

Results flagged for a closer look

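Of 207 detected genes with levels in the text, 12 had 1 array whose gap to its nearest neighbour, as a share of the range of the 4 arrays, lay above Dixon's critical value. Chance flags about 1 in 20 groups. Array 1 stood high for Ifitm1 (14.21), B2m (13.34), Tgfbr2 (10.96), Dusp6 (10.60) and Ctnnb1 (9.79), and low for the claudin Cldn9 (6.34). Array 4 stood high for Cd274 (6.74) and for the class I-like gene Mill2 (6.35), and low for Col5a1 (10.14). Array 2 stood high for Ldha (13.45), and low for Tigit (8.27) and Il11 (5.32). The single arrays were not set against any other measure of the samples.

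Of the 10396 probes without a single gene symbol, 1638 were detected on all 4 arrays, with a median level of 7.26 and a highest level of 14.64. Of these, 137 had a level over 12, and none of them can be given a gene here.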

How the results depend on the processing

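The counts of detected and absent genes stayed within 1.5 times the reported ones under each alternative run. Detected genes numbered 7653, and 7073 at a detection p under 0.01, 8227 where 3 of 4 arrays sufficed, 7641 by the brightest probe alone and 7725 to 8010 without 1 array. Genes between the calls numbered 2573, and 1393 at a p under 0.01. At that threshold the 6 detected epithelial genes became 3 and the 9 sensory receptors 2. The 3 of 4 rule gave 21 sensory receptors and 12 genes of other cell types in place of 4, and leaving out 1 array gave 4 to 9 of the genes of other cell types, the highest without array 4. Mesenchymal genes gave 24, and 22 at a p under 0.01. The stricter threshold removed the detected call of 580 genes (7.58%), none with a level above 5.97, and of 18 of the 207 detected genes with levels in the text, namely Ceacam1, Pkp2, Elf3, Lgals4, Hnf4a, Gata6, Tcf7l2, Clca1, Il33, Met, Apc, Des, Flt1, Cdh5, Tlr2, Il7, Ifna1 and Mill2. It left 3 of 5 claudins, 3 of 5 Notch genes, 3 of 5 interleukins and 2 of 4 endothelial genes. The median level of the named genes was 9.65, with 9.92 in the authors' processed log2 values and 9.10 as the mean of a gene's detected probes. Gene by gene, 189 of 217 levels in the text moved by their SD or more in the authors' values. Without background correction 98 of 217 did, and as the mean of detected probes 57 of 207. With the same normalization on the 4 control arrays alone 13 of 217 did, and 0 did without any 1 array. The median SD of a detected gene was 0.18, with 0.11 in the authors' values and 0.38 without background correction. The cause of these shifts was not tested. The 100 brightest genes were the same 100 under the 3 other normalizations. These read the same probe per gene on the same arrays, so the order had little room to change. No paired analysis was possible because only 1 group was described and its results come from no test. Signal over background limits every call near the negative beads, and 1 probe per gene limits 9885 of the 19057 genes.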
